A study of Homo sapiens with 18 samples.

Results

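The first 90 Mb of chromosome 2, most of its short arm, held 1277 of the 59275 regions that were called open by ATAC-seq in at least 1 of 4 HEK293T libraries. The regions were found by merging the 4 deposited lists of broad peaks wherever peaks overlapped by 1 bp or more, and by keeping the merged regions whose midpoint lay below 90 Mb. The stretch was singled out because fewer of its regions were called in UBR7KO libraries, so the ATAC counts below describe how it was chosen and carry no test. RNA of the 386 genes in the deposited RNA table that start in the stretch was not part of the rule.

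HEK293T is an established human embryonic kidney cell line. Parental cells, with unedited UBR7, were compared with CRISPR-Cas9 UBR7KO cells in 2 ATAC-seq libraries of each kind and in 3 RNA-seq libraries of each kind, and no treatment or time course is named. Of the UBR7KO RNA libraries, 2 are labelled KO1 (KO1-1, KO1-2) and 1 is labelled KO2 (KO2-1). Date codes in the descriptions pair KO1-1 with parental 1 and KO1-2 with parental 2, while KO2-1 and parental 3 carry no date and were taken as the undated pair. Both UBR7KO ATAC libraries carry the same code as KO2-1, from which it was inferred, though nowhere stated, that the cells labelled KO2 served for ATAC-seq. Whether a label stands for 1 clone, and whether replicates came from separate cultures, is not given in the sources used here, so the spread between libraries may be technical. One ChIP-seq library against GFP, from HEK293T cells with GFP added to the endogenous UBR7 gene, and its input gave the deposited GFP-UBR7 peak list.

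ATAC-seq reads where a transposase can reach DNA, which is mainly where nucleosomes are absent or displaced. Promoters of broadly used genes tend to be open in most cells, whereas sites far from gene starts, many of them enhancers, tend to be open in fewer cell types. UBR7 is a UBR box protein that the series title names as a chaperone of histone H3 outside nucleosomes. Histone chaperones hold histones that are not on DNA and hand them on for assembly or turnover.

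The ATAC libraries held 10507 and 38529 peaks in parental 1 and 2, and 15310 and 45920 in UBR7KO 1 and 2, so counts were compared as shares of a library's own regions. The 6 RNA libraries held 22153291 to 29811908 reads. UBR7 RNA measured 55.0, 62.2 and 62.2 CPM (reads of a gene scaled to a common library total) in parental 1, 2 and 3, 27.0 and 26.3 CPM in KO1-1 and KO1-2, and 64.5 CPM in KO2-1. UBR7 RNA in the library labelled KO2 was thus at the parental level, and directions drawn from that library rest on its label alone. Of 7 HEK293T genes (VIM, KRT8, KRT18, PAX2, NEFM, NEFL and EPCAM) all 7 were in the table. PAX2 (0.721 to 1.92 CPM) and EPCAM (0.671 to 2.44 CPM) were low in all libraries. Of 8 markers of other cells only COL1A1 and LUM were in the table. COL1A1 ran from 5.97 CPM in KO2-1 to 12.6 CPM in parental 2, and LUM from 0.547 to 2.28 CPM. The mitochondrial rRNAs took 24.7% of reads in parental 3 and 26.3% in KO2-1, against 15.8% to 21.1% in the dated libraries. The dated libraries gave 2.35% to 6.13% of their reads to CTD-2328D6.1, parental 3 gave 0.0237% and KO2-1 gave 0.0136%. Their part in the results below was not tested.

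Promoter sequences are shown first for the 5 stretch regions with the highest evidence in all 4 libraries, which lay at TSSC1 (listed as EIPR1 in RefSeq), ASAP2, TIA1, SERTAD2 and ADAM17. They are followed by 3 genes whose RNA changed in the undated pair against the dated pairs, TMSB10, EPAS1 and PXDN. Each is the 250 bases before the gene's start in RefSeq GRCh38.p14, 5′ to 3′ on the gene's strand, with capitals marking any of 5 motifs found on either strand.
TSSC1: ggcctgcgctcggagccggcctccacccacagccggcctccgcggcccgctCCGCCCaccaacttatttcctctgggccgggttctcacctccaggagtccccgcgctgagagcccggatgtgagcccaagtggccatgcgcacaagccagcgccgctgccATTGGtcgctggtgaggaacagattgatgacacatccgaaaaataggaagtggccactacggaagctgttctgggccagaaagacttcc
ASAP2: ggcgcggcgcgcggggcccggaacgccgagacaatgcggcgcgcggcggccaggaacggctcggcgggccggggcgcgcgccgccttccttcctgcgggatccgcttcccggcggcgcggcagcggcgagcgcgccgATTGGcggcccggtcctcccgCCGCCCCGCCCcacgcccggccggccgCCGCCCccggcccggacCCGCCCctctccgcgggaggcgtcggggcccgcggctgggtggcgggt
TIA1: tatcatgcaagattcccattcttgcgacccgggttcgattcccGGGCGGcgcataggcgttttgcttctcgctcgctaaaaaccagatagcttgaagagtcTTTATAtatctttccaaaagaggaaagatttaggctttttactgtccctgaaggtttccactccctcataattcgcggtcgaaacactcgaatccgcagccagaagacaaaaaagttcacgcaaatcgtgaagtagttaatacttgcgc
SERTAD2: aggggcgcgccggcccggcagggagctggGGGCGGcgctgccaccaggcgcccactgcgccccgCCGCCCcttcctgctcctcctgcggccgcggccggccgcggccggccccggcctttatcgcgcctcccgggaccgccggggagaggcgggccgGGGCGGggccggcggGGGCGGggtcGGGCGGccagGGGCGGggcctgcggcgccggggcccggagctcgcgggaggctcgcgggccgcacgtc
ADAM17: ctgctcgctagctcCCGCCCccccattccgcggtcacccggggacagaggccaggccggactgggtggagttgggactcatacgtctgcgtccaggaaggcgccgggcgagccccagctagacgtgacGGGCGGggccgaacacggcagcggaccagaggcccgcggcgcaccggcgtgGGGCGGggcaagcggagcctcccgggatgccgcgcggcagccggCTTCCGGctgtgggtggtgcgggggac
TMSB10: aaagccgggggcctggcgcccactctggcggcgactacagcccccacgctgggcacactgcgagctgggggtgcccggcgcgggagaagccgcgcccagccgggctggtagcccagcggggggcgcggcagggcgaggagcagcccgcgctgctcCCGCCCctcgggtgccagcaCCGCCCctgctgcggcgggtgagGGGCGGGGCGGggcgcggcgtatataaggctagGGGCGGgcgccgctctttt
EPAS1: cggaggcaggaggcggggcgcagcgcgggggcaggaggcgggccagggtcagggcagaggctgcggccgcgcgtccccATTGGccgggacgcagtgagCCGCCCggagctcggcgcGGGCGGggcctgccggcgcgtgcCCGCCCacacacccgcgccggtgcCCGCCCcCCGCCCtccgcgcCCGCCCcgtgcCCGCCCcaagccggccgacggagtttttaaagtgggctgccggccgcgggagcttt
PXDN: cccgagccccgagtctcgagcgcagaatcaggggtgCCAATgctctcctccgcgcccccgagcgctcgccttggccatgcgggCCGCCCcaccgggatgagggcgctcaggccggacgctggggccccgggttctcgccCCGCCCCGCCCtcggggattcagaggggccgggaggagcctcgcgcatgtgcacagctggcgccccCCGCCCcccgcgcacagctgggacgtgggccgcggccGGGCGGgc

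In GRCh38.p14 the windows of ASAP2 (chr2:9206562-9206811), TMSB10 (chr2:84905406-84905655) and EPAS1 (chr2:46297157-46297406) lie on the plus strand. Those of TSSC1 (chr2:3377819-3378068), TIA1 (chr2:70248794-70249043), SERTAD2 (chr2:64653914-64654163), ADAM17 (chr2:9555831-9556080) and PXDN (chr2:1744516-1744765) lie on the minus strand. The motifs searched were the GC box GGGCGG, the CCAAT box CCAAT, the ETS core CCGGAAG, the cyclic AMP element TGACGTCA and the TATA box TATAAA. No motif contains another, though neighbouring matches can overlap. The GC box, which Sp-family factors bind, was in all 8 windows, with 7 matches in EPAS1, 6 in SERTAD2 and 1 each in TSSC1 and TIA1. TIA1 stood apart with a GC content of 45.6% and a TATA box match, against 64% in TSSC1 and 86.8% in SERTAD2.

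Of the 386 stretch genes, 313 had a RefSeq promoter under their symbol, and 213 of these (68.1%) held a GC box, against 42.3% of all 27305 promoters in the table. ETS matches were in 15.3% of stretch promoters and 8.82% of all, CCAAT boxes in 35.8% and 33.0%, and TATA boxes in 2.56% and 11.1%. The cyclic AMP element was in 1.92% and 1.77%. Median GC content was 64.4% in the stretch and 58% over all promoters, with 22 and 11 CG dinucleotides. The stretch genes are those listed in the RNA table, so most are expressed, whereas the full set holds every promoter. A match is a description of the letters and not a bound site.

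Open regions of the stretch made up a smaller share of each UBR7KO library than of the parental library of the same replicate number. They numbered 308 of 10486 regions in parental 1 (2.94%, 95% exact Clopper-Pearson interval 2.62% to 3.28%) and 1059 of 38234 in parental 2 (2.77%, 2.61% to 2.94%). UBR7KO 1 held 358 of 15275 (2.34%, 2.11% to 2.60%) and UBR7KO 2 held 821 of 45470 (1.81%, 1.69% to 1.93%). The UBR7KO to parental ratio was 0.798 for replicate 1 and 0.652 for replicate 2, and 0.727 for the means. The parental shares lay within each other's intervals, while those of UBR7KO 1 and 2 did not meet. Intervals cover counting error only.

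For the remaining 3268 regions of chromosome 2 the same ratios were 1.01 and 1.17. Among the other chromosomes, the 1468 regions of chromosome 17 beyond 20 Mb gave 0.910 and 0.710, and the 871 regions of chromosome 6 from 40 to 100 Mb gave 1.30 and 1.37. Both parts were picked with earlier results of these data known, and do not stand for chromosomes at large. The low ratio of the stretch was therefore not particular to it in these libraries, though it did not run on into the rest of its own chromosome. In bins of 10 Mb with at least 20 regions in each parental library, 8 of the 9 bins of the stretch qualified. All 8 were below 1 in both replicates, from 0.670 to 0.921 in replicate 1 and from 0.597 to 0.850 in replicate 2. Of 15 qualifying bins on the rest of chromosome 2, 2 were below 1 in both replicates, and of 215 bins on other chromosomes 71 were. Ratios under 0.7 in replicate 2 occurred in 6 of the 8 stretch bins, in 0 of the 15 and in 6 of the 215. The bin from 80 to 90 Mb had the highest replicate 2 ratio of the stretch, with 90 regions in parental 2 and 91 in UBR7KO 2.

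**Figure D1:**
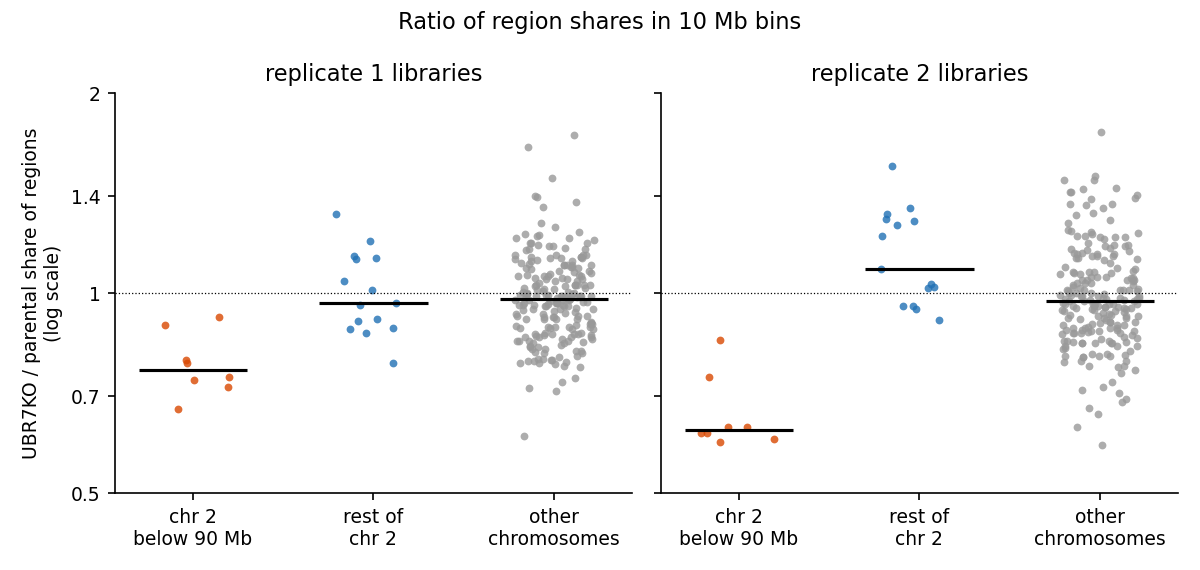
Ratio of the share of regions in UBR7KO to that in parental libraries, on a log scale, for 10 Mb bins of the stretch (8 points), the rest of chromosome 2 (15) and other chromosomes (215), with the median as a bar. All 8 stretch bins sit below 1 in both panels, with medians of 0.767 and 0.623.

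The deficit lay mainly away from gene starts. Within 1 kb of a start, where 343 of the 1277 regions lay, the stretch held 236 and 328 regions in parental 1 and 2 and 281 and 326 in UBR7KO 1 and 2. Measured as a share of all regions of that distance class, the ratios there were 0.919 and 0.954. At 1 to 10 kb, with 6, 76, 8 and 60 regions in the same order of libraries, the ratios were 0.672 and 0.648. At 10 to 100 kb, with 35, 351, 42 and 240 regions, they were 0.627 and 0.578. Beyond 100 kb, with 31, 304, 27 and 195 regions, they were 0.460 and 0.476. The share within 1 kb in UBR7KO 2 (2.67%, 95% exact interval 2.39% to 2.97%) lay inside the interval of parental 2 (2.51% to 3.11%). Beyond 100 kb the share in UBR7KO 2 (1.34%, 1.16% to 1.54%) lay far below that in parental 2 (2.81%, 2.51% to 3.14%). On the rest of chromosome 2 the ratios beyond 100 kb were 0.967 and 1.28. Chromosome 17 beyond 20 Mb showed the same gradient, with 0.953 and 0.968 within 1 kb and 0.604 and 0.427 beyond 100 kb. Chromosome 6 from 40 to 100 Mb showed it in the opposite direction, with 1.16 and 1.01 within 1 kb and 2.06 and 1.54 beyond 100 kb.

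**Figure D2:**
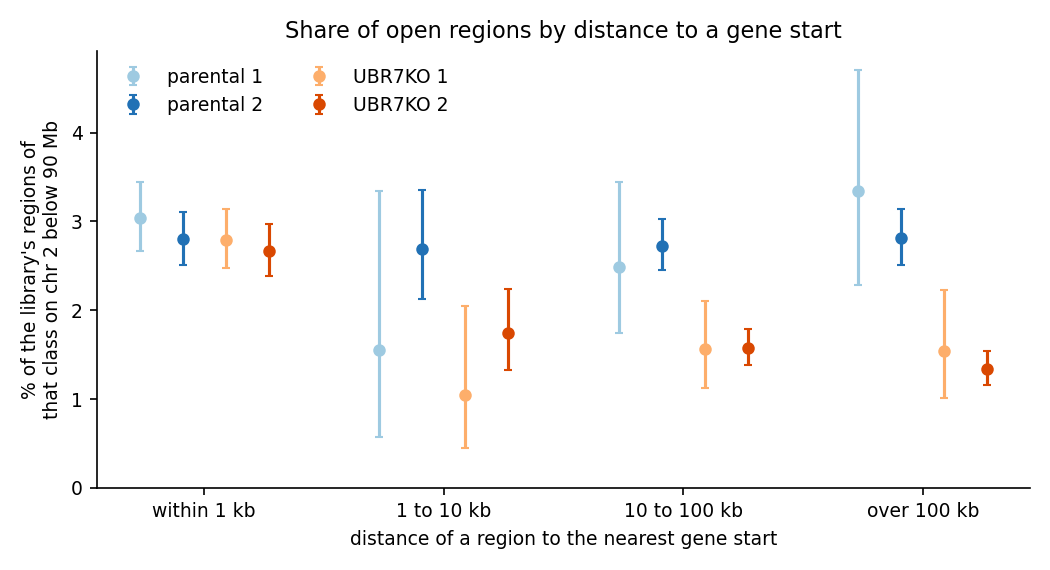
Share of each library's regions that lie on chromosome 2 below 90 Mb, by distance to the nearest gene start, with 95% exact intervals. Within 1 kb the 4 libraries lie between 2.67% and 3.04%, and beyond 100 kb the UBR7KO libraries lie at 1.34% and 1.54% against 2.81% and 3.34% in the parental libraries.

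Parental regions of the stretch differed in how often they were called again in UBR7KO. Of the 328 parental 2 regions within 1 kb of a start, 311 (94.8%) were also called in UBR7KO 2, against 97.1% elsewhere in the genome. Beyond 100 kb 114 of 304 (37.5%) were, against 49.8% elsewhere and 58.6% on the rest of chromosome 2. Regions found in UBR7KO 2 and not in parental 2 were fewer as well. Beyond 100 kb they were 81 of 195 (41.5%) in the stretch and 63.6% elsewhere. In replicate 1, with 31 parental regions beyond 100 kb, 14 (45.2%) were called again, against 49.7% elsewhere and 41.5% on the rest of chromosome 2. The order of the stretch and the rest of its chromosome was thus not the same in both replicates, and the counts of replicate 1 are small.

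By library, 254 of the 1277 regions (19.9%) were called in all 4, against 14.7% of regions elsewhere. The largest class was parental 2 alone, with 433 regions (33.9%, 20.5% elsewhere), followed by the 254 called in all 4, by parental 2 with UBR7KO 2 (241) and UBR7KO 2 alone (193, 15.1%, 32.6% elsewhere). In all, 445 regions (34.8%) were called in a parental library and in no UBR7KO library, against 21.3% elsewhere, and 203 (15.9%) the other way round, against 34.9%. The regions ran from 93 to 1869 bp, with a median of 313 bp against 287 bp elsewhere. The median −log10 q of the authors' peaks in the stretch was 0.996 in parental 1 and 1.29 in parental 2. It was 1.21 in UBR7KO 1 and 1.91 in UBR7KO 2. Elsewhere the medians were 1.07, 1.33, 1.23 and 1.87 in the same order. Many calls were thus weak, and a region missing from a library may lie near its calling limit.

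The regions open in all 4 libraries were mostly promoters, as elsewhere, with 224 of 254 (88.2%) within 1 kb of a start against 83.0% elsewhere. Their peak evidence, the authors' −log10 q, differed between genotypes by about as much as elsewhere, while the width covered by peaks did not. The median difference, UBR7KO minus parental, was 0.148 in replicate 1 and 0.504 in replicate 2, against 0.154 and 0.555 for the 8540 such regions elsewhere. Because −log10 q depends on the depth and the background of a library, it measures evidence and not accessibility. In replicate 2 the median width covered by peaks was 706 bp in UBR7KO and 751.5 bp in parental, against 760 and 725 bp elsewhere. In replicate 1 it was 550 and 457 bp, against 573 and 423 bp elsewhere. A region called in all 4 libraries can thus still differ between them.

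Positions of regions and genes below follow the coordinates of the deposited files, which are of GRCh37 type. The region with the highest evidence in its weakest library lay over the start of TSSC1 (chr2:3381195-3382276), whose protein works with an endosomal recycling complex, with −log10 q of 5.09, 2.24, 2.80 and 7.69 in parental 1, parental 2, UBR7KO 1 and UBR7KO 2. At ASAP2 (chr2:9346318-9347677), a GTPase-activating protein for Arf, the values were 2.16, 2.32, 2.20 and 3.70. The region shared by C2orf42 and TIA1 (chr2:70475390-70476182), TIA1 being an RNA-binding protein of stress granules, had 2.44, 2.32, 1.85 and 6.99. At SERTAD2 (chr2:64977810-64979228), 361 bp from a start, the values were 2.50, 2.18, 1.78 and 1.74. ADAM17 (chr2:9695157-9696519), the protease that sheds TNF, had 1.72, 4.55, 3.82 and 3.06. The parental and UBR7KO values of these 5 regions overlapped, except at SERTAD2, where both UBR7KO values were lower.

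Few regions followed genotype in both replicates. Called in both UBR7KO libraries and in no parental library were 4 (0.313%, 1.01% elsewhere), nearest to ANKRD36BP2 (chr2:89131314-89132149, −log10 q 1.18 and 2.63), ATL2 (chr2:38491807-38492239, 0.860 and 6.21), MEIS1 (chr2:66734906-66735297, 3.69 and 0.763) and ANXA4 (chr2:69941870-69942039, 0.736 and 0.780). In both parental and no UBR7KO library were 2 (0.157%, 0.166% elsewhere), the one 11326 bp from EIF2AK2 (chr2:37395534-37395744, 1.07 and 1.06) and the other at chr2:38742565-38742912 (1.04 and 0.754). None of these 6 lay within 1 kb of a start. The widest region, of 1869 bp, covered the starts of KCNG3 and MTA3 (chr2:42720450-42722318) and was called in all 4 libraries, with −log10 q of 0.498 and 1.38 in the parental libraries.

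At the 90 Mb limit, the last regions inside were chr2:89878442-89880021, called in all but parental 2, and chr2:89948242-89948408, called in parental 2 alone. The first outside were chr2:90108270-90108379, in parental 2 alone, and chr2:90371672-90371975, called in all 4 with −log10 q from 0.801 to 1.79. The 4 regions on either side thus included both shared and single-library calls.

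GFP-UBR7 peaks of the stretch lay on open regions about as often as peaks elsewhere, while a larger share of its open regions carried a peak. The deposited list held 187 peaks there, 3.17% of its peaks, and 147 of them (78.6%) overlapped an open region, against 79.3% elsewhere. A peak lay on 128 of the 1277 regions (10.0%), against 6.88% elsewhere and 5.54% on the rest of chromosome 2. Among regions open in all 4 libraries the shares were 28.0% in the stretch and 27.1% elsewhere. They were 24.1% (21 of 87 regions) and 16.4% among regions open in all but parental 1, and 6.64% (16 of 241) and 4.12% in parental 2 with UBR7KO 2. The shares were 1.62% (7 of 433) and 0.657% in parental 2 alone, and 2.07% (4 of 193) and 0.92% in UBR7KO 2 alone. The stretch counts in these classes are small. The overlapping peaks with the highest authors' score lay at MCEE and MPHOSPH10, RPS7, DDX1, CCT4 and COMMD1, and DPYSL5, each open in all 4 libraries, with scores from 148 to 174. There is 1 ChIP library, so these counts have no replicate check.

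RNA of genes in the stretch was lower in the library labelled KO2 than in its undated parental partner across nearly the whole stretch, and the KO1 pairs showed much smaller differences. Of 370 genes above 1 CPM in at least 3 of 6 libraries, 327 (88.4%) were lower in KO2-1 than in parental 3, against 51.8% of 13327 other genes. The median log2(CPM + 1) difference was −0.39, a ratio of 0.762, against −0.01 for the other genes. The same medians were −0.05 and 0.00 for KO1-1 against parental 1, and 0.03 and 0.07 for KO1-2 against parental 2. Lower in these pairs were 58.6% and 43.5% of stretch genes, against 50.1% and 37.3% of other genes. The rest of chromosome 2 was at 57.2% and 38.1%. For the 556 genes on the rest of chromosome 2 the undated median was 0.04. The lower RNA was not particular to the stretch. On chromosome 17 beyond 20 Mb 532 of 621 genes (85.7%) were lower in the undated pair, with a median of −0.35. On chromosome 6 from 40 to 100 Mb 16.3% of 178 genes were lower, with a median of 0.23. The undated pair is 1 library a side and has no test of its own. In bulk samples, fewer cells of a type and less RNA per cell cannot be told apart.

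Summed over the stretch, its genes took 2.02%, 1.86% and 2.01% of reads in parental 1, 2 and 3. They took 1.97% and 1.91% in KO1-1 and KO1-2, inside the parental range, and 1.49% in KO2-1, below all the others. Past 1.5-fold, 77 of the 370 genes (20.8%) were lower in the undated pair, where the background over all 13697 genes was 4.64%. Only 2 (0.541%) were higher past 1.5-fold, with a background of 3.89%. In the first dated pair, 14 were lower (3.78%, background 5.16%) and 6 higher (1.62%, background 3.19%). In the second, 4 were lower (1.08%, background 1.38%) and 4 higher (1.08%, background 3.10%).

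Set against every other library, KO2-1 was the lowest of the 6 for 229 of the 370 genes (61.9%), where the background was 23.5%. It was below all 3 parental libraries for 241 (65.1%, background 26.0%) and above all 3 for 7 (1.89%, background 11.9%). Parental 3, the undated partner, was the lowest of the 6 for 27 genes (7.30%), against 25.1% of other genes.

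**Figure D3:**
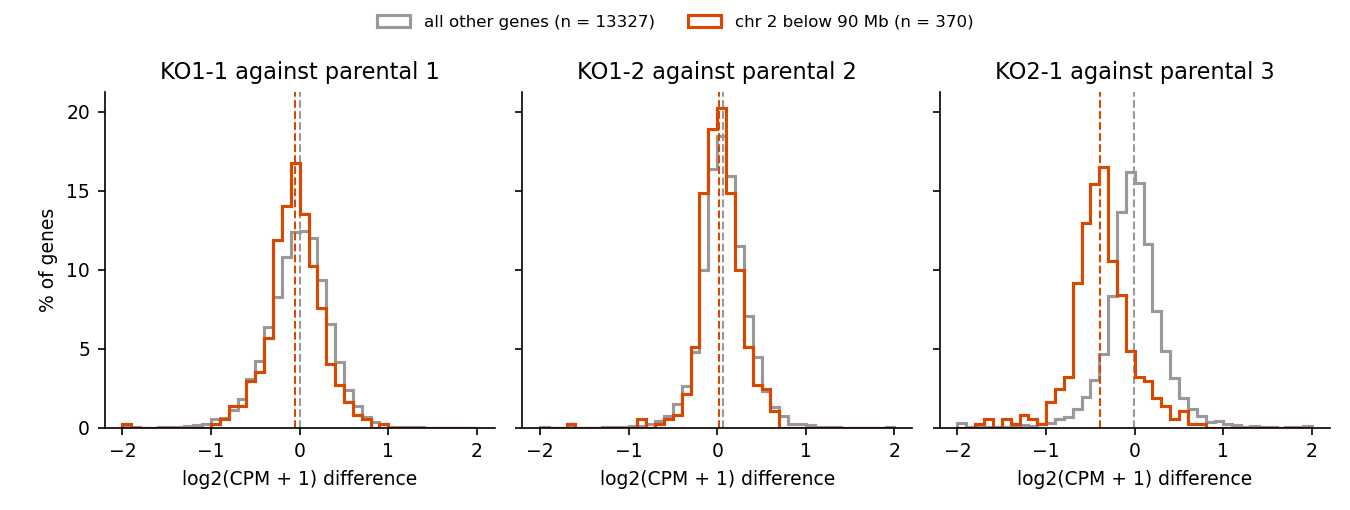
Distribution of log2(CPM + 1) differences, UBR7KO minus parental, for the 370 stretch genes and the 13327 other genes in each pair, in percent of genes, with medians as dashed lines and values beyond 2 gathered in the end bins. The stretch genes have medians of −0.05 and 0.03 in the dated pairs, against 0.00 and 0.07 for the others, and lie lower, with a median of −0.39, in the undated pair.

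The lower RNA ran through the whole stretch. In 10 Mb bins the undated median was −0.40, −0.36, −0.36, −0.48, −0.37, −0.51, −0.43, −0.36 and −0.46 from 0 to 90 Mb, over 21 to 74 genes a bin. The replicate 2 ATAC ratio in the same bins was 0.603, 0.617, 0.749, 0.629, 0.617, 0.598, 0.629, 0.597 and 0.850. All 9 RNA medians were thus between −0.51 and −0.36, and the bin with the highest ATAC ratio, from 80 to 90 Mb, was not the bin with the smallest RNA difference. Of 243 bins elsewhere with enough genes, 4 had a median below −0.3, and all 4 were on chromosome 17. Those 4 bins had medians from −0.51 to −0.33.

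The undated median was below that of other genes at each of 3 levels of expression and in most classes of start. With the stretch genes split by mean parental CPM into groups of 123, 124 and 123, the undated median was −0.23 in the low group, −0.42 in the middle group and −0.43 in the high group, where all 123 genes were lower in KO2-1. Other genes at the same levels gave 0.02, 0.00 and −0.04. For 217 genes whose start was open in all 4 ATAC libraries the median was −0.40, and for 63 with no region at the start it was −0.25. The exception was the 10 genes whose start was open in parental 2 alone, at −0.09 against −0.11 for other genes of that class, with a median level of 2.49 CPM. Genes with no region at the start had a lower median level than those open in all 4, 10.1 against 39.2 CPM.

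The 10 most expressed genes of the stretch were all lower in KO2-1 than in parental 3, by 0.33 to 0.60 on the log2 scale. Against the mean of the 3 parental libraries all 10 were still below 0, but 5 of the values moved by over 1.5 times, CCT7 to −0.05, CCT4 to −0.15, PDIA6 to −0.21, YWHAQ to −0.23 and MTHFD2 to −1.14. CCT7 and CCT4, subunits of the chaperonin that folds actin and tubulin, were among them. CCT7 (chr2:73460548-73480149, plus strand) measured 448, 539 and 775 CPM in parental 1, 2 and 3, 456 and 551 CPM in KO1-1 and KO1-2, and 553 CPM in KO2-1. KO2-1 was lower than its partner but inside the range of the 3 parental libraries. XPO1 (chr2:61704984-61765761, minus strand), the main nuclear export receptor, measured 514, 456 and 454 CPM in the parental libraries, 451 and 452 CPM in KO1 and 360 CPM in KO2-1, the lowest of the 6. CCT4 measured 482, 356 and 558 CPM, 499 and 379 CPM, and 412 CPM in the same order. For the ribosomal protein genes RPS7 and RPS27A, which have near-identical copies elsewhere in the genome, the undated differences were −0.38 and −0.44. Those of YWHAQ (a 14-3-3 protein), LRPPRC (mitochondrial RNA stability) and PDIA6 (protein folding in the endoplasmic reticulum) were −0.47, −0.35 and −0.38. SPTBN1 and MTHFD2, the remaining pair, are given with the test of the difference.

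No gene of the stretch was called in the comparison the series names, UBR7KO against parental over 6 libraries. Limma on log2(CPM + 1) called 0 of 13697 genes (background 0%) and so 0 of 370, and edgeR's quasi-likelihood test and DESeq2 on recovered reads called 0 of the 370 as well. Over all 13697 genes edgeR called 0, and DESeq2 called 1 higher and 6 lower. Before adjustment, limma gave 0 higher and 2 lower stretch genes with p below 0.05. The median change of the stretch was −0.14 against 0.02 for other genes, and without KO2-1 it was 0.04 against 0.07.

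In the KO1 dated pairs, limma called 0 of 14059 genes (background 0%) and 0 of 384 stretch genes. Before adjustment, 1 of the 384 was higher and 4 were lower with p below 0.05. EdgeR called 0 of the 384 and 0 of all genes. DESeq2 called 2 of the 384, both lower, where it called 3 higher and 19 lower of all 14059. With the date pair as a block 8 of the 384 were called by limma (2.08%, background 3.53%), 2 higher (0.521%, background 2.16%) and 6 lower (1.56%, background 1.37%). That fit leaves 1 residual degree of freedom, and without the block none of the 8 was called by limma. The median change was 0.00 in the stretch and 0.03 elsewhere.

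PXDN (chr2:1635659-1748624), a peroxidase that crosslinks collagen IV, was higher in KO1, with a log2 change of 0.60 (SE without the block 0.21) and a limma adjusted p of 0.00601 with the block. TMSB10, an actin-binding thymosin, had a log2 change of 0.54 (SE without the block 0.25) and a limma adjusted p of 0.0149 with the block. The lower genes were the long noncoding AC116614.1 (−1.81), FAM110C (−1.50), TAF1B (−0.81), ATP6V1C2 (−0.80), VAMP8 (−0.76) and ID2 (−0.50), with limma adjusted p from 8.61e-06 to 0.0368 with the block. AC116614.1, FAM110C and ATP6V1C2 were below 1 CPM in both KO1 libraries and passed the filter only through parental 1 and parental 2. Their direction was thus fixed by the filter, and their calls are description only. TAF1B is part of the factor that starts rRNA transcription, VAMP8 a SNARE of vesicle fusion, and ID2 an inhibitor of helix-loop-helix factors. FAM110C was read 41 and 54 times in the dated parental libraries and 1 time in each KO1 library, against 20 times in parental 3 and 23 in KO2-1. AC116614.1 was read 108 and 50 times in parental 1 and 2, 7 times in KO1-1 and 1 time in KO1-2, against 16 times in parental 3 and 38 in KO2-1. Both were thus far lower in KO1 than in the dated parental libraries and not lower in KO2-1 than in parental 3.

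The change in the undated pair was then tested against the change in the KO1 pairs, in a limma fit with the date pair as a block, which leaves 1 residual degree of freedom. That spread comes from the dated pairs alone, and the undated libraries, with no replicate, are assumed to vary like them. The calls below rest on this assumption. Over all 13697 genes, 234 were called higher (1.71%) and 455 lower (3.32%). In the stretch 2 of 370 were called higher (0.541%) and 39 lower (10.5%), together 11.1% against 5.03% of all genes. The median difference of the stretch was −0.35 against −0.04 for other genes. All 39 were below 0 in the undated pair, by 0.46 to 1.72 on the log2 scale, and 32 of the 39 were above 0 in both KO1 pairs. A call thus often joined a value below 0 in the undated pair with values above 0 in the KO1 pairs.

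EPAS1 (chr2:46520806-46613836, plus strand), the hypoxia-inducible factor HIF-2α, had the lowest difference. It measured 14.2, 15.8 and 19.0 CPM in parental 1, 2 and 3, 19.1 and 19.9 CPM in KO1-1 and KO1-2 and 5.07 CPM in KO2-1. Only KO2-1 stood apart, and the difference between the pairs was −2.08 (SE 0.28, limma adjusted p 1.92e-05). PXDN measured 52.2, 61.7 and 48.7 CPM, 82.0 and 91.1 CPM, and 19.4 CPM in the same order. The 3 groups of libraries did not overlap, KO1 being above and KO2-1 below the parental range, with a difference of −1.89 (SE 0.21, limma adjusted p 1.63e-06). No ATAC region lay at the start of either gene.

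SIX2 (chr2:45232300-45236569, minus strand), a homeobox factor of kidney progenitors, measured 7.59, 5.37 and 24.1 CPM in the parental libraries, 10.0 and 6.08 CPM in KO1 and 7.04 CPM in KO2-1. Here parental 3 stood high and KO2-1 lay among the other libraries, so the difference of −1.90 (SE 0.32, limma adjusted p 0.000356) goes with the high partner library. TRIB2, a pseudokinase, measured 10.7, 9.98 and 8.37 CPM, 16.1 and 11.1 CPM, and 2.99 CPM in KO2-1. KO2-1 was the only low library, with a difference of −1.57 (SE 0.32, limma adjusted p 0.00302). TMSB10 measured 153, 200 and 298 CPM, 246 and 264 CPM, and 150 CPM in KO2-1, which was just below parental 1, with a difference of −1.52 (SE 0.21, limma adjusted p 3.36e-05). SLC8A1, a sodium-calcium exchanger, measured 15.2, 15.9 and 25.9 CPM, 17.9 and 16.4 CPM, and 9.83 CPM. Its difference was −1.44 (SE 0.27, limma adjusted p 0.00131).

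Among the called genes were also highly expressed ones, picked after their values were seen. SPTBN1, a spectrin of the membrane skeleton, measured 268, 347 and 346 CPM in the parental libraries, 283 and 474 CPM in KO1 and 235 CPM in KO2-1, with a difference of −0.82 (limma adjusted p 0.0271). MTHFD2, a mitochondrial folate enzyme, measured 496, 252 and 203 CPM, 544 and 287 CPM, and 133 CPM, with a difference of −0.76 (limma adjusted p 0.0303). For BIRC6 (an inhibitor of apoptosis) the difference was −0.75, for CAD (pyrimidine synthesis) −0.84 and for RTN4 (a reticulon of the endoplasmic reticulum) −0.92. BIRC6 was lowest in KO2-1, at 138 CPM. CAD and RTN4 in KO2-1 (110 and 83.3 CPM) lay inside the parental ranges of 77.1 to 176 and 81.7 to 138 CPM. Parental 3 was the highest parental library for both, so their differences go in part with the high partner library. SPTBN1, MTHFD2 and BIRC6 were no longer called under TMM scaling, with limma adjusted p from 0.0636 to 0.0780, or by edgeR, with adjusted p from 0.0683 to 0.0851.

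**Figure D4:**
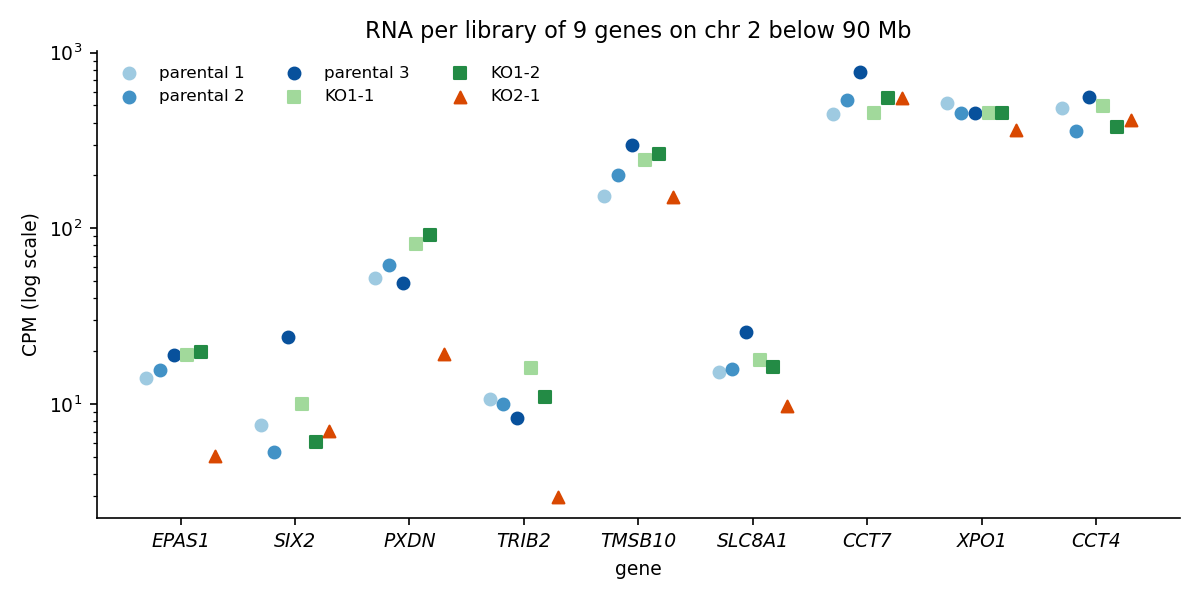
CPM of 9 stretch genes in each RNA library on a log scale, with circles for parental, squares for KO1 and a triangle for KO2-1. KO2-1 is the lowest point for EPAS1, PXDN, TRIB2, TMSB10, SLC8A1 and XPO1, and lies among the other libraries for SIX2, CCT7 and CCT4.

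The 2 genes called higher in the test of the difference were AC116614.1 (2.36) and ATP6V1C2 (1.32), a subunit of the vacuolar proton pump, and both were lower in KO1. Both passed the 1 CPM filter only through parental 1, parental 2 and KO2-1, so the filter favoured this direction. The other genes among the 8 lowest of the undated pair were VAMP8 (−1.66), C2orf43 (−1.41) and EHD3 (−1.03), which became −1.26, −0.81 and −0.58 against the mean of the 3 parental libraries. C2orf43 was called in the test of the difference (−1.25, limma adjusted p 0.0331). The 8 largest rises of the undated pair among genes of at least 5 CPM were small, from 0.25 for LOXL3 to 0.52 for KHK, the kinase of fructose metabolism. Those of EML6, LRRTM4, SLC1A4, CYP1B1, FKBP1B and IAH1 lay between. LRRTM4 measured 10.9, 6.91 and 3.29 CPM in the parental libraries and 4.56 CPM in KO2-1. For EML6, LRRTM4, SLC1A4, FKBP1B and IAH1 the sign turned when the mean of the 3 parental libraries replaced parental 3.

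Genes of the stretch were also grouped by role, in 7 lists chosen with earlier results known. The list medians of the undated pair ran from −0.52 to −0.29, around the −0.39 of the whole stretch. Of the 92 members tested, 87 (94.6%) were lower in that pair, against 88.4% of the stretch. In the middle and high expression groups of the stretch 91.9% and 100% were lower. The counts of lower genes in each list are thus near the share of the stretch and say nothing about a role. In DNA repair, replication and nucleotide synthesis, 8 of 8 were lower in the undated pair (median −0.46). MTHFD2 and CAD of that list were called lower in the test of the difference. MSH6 (mismatch repair), ODC1 (polyamine synthesis) and RRM2 (deoxynucleotide synthesis), the others most expressed, had undated differences of −0.20, −0.06 and −0.49. In chromatin and transcription, 13 of 14 were lower (median −0.29) and 0 were called. Its most expressed members CEBPZ, ZNF512, SUPT7L and ASXL2 had −0.03, −0.08, −0.58 and −0.29. In RNA processing and translation, 16 of 17 were lower (median −0.35) and 0 were called.

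In trafficking, folding and cytoskeleton, 15 of 15 were lower (median −0.49), where 88.4% of the stretch was. Of these, 5 were called lower in the test of the difference, among them SPTBN1, RTN4, STRN and SNX17. In metabolism and mitochondria, 14 of 15 were lower (median −0.46), and LPIN1 (−1.18) and MOGS (−0.94) were called. HADHA, PREPL, ACP1 and MDH1, its most expressed members, had undated differences of −0.39, −0.37, −0.61 and −0.50. CYP1B1 was the exception at 0.33. In signalling and cell survival, 14 of 14 were lower (median −0.52), and BIRC6 and LTBP1, a binding protein of latent TGF-beta, were called. PPP1CB, ROCK2 and PRKD3 had undated differences of −0.34, −0.58 and −0.31.

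Developmental transcription factors were sparse, with 9 of 14 in the table and 7 of 9 lower (median −0.42). EPAS1 and SIX2 were called, and the most expressed, ID2, KLF11 and MEIS1, had undated differences of −0.42, −0.47 and −0.17. EMX1 and LBX2, both under 5 CPM, were at 0.50 and 0.17. Over all 7 lists 0 members were called higher and 13 lower in the test of the difference, 14.1% of 92, where 10.5% of the stretch and 3.32% of all genes had such a call. With the block in the dated pairs, 2 of the 92 list members (2.17%) were called, TAF1B and ID2, both lower, where 1.37% of all genes were called lower. The ID2 change of −0.50 without the block became 0.059 without parental 1 and −0.19 without KO1-2. Leaving out 1 library breaks a date pair in that fit. Within the dated pairs ID2 was lower on both dates, at −0.75 and −0.25.

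**Figure D5:**
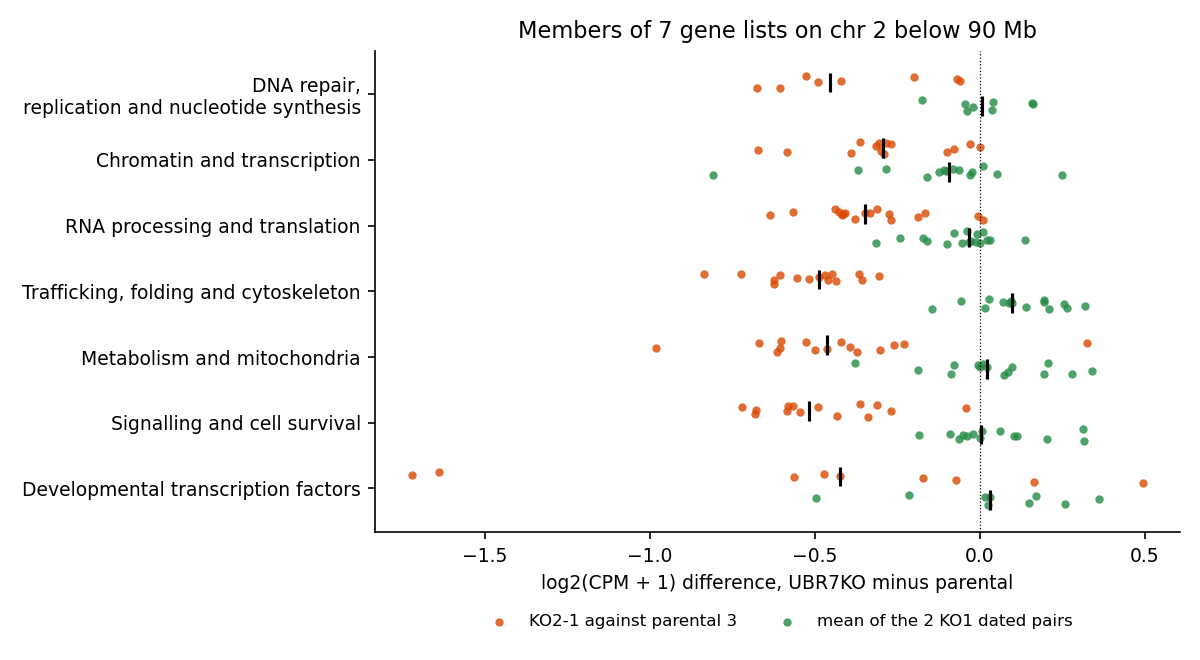
Differences in log2(CPM + 1), UBR7KO minus parental, for the members of the 7 lists in the undated pair and as the mean of the dated pairs, with the list median as a bar. The undated medians lie between −0.52 and −0.29.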

How the data were processed

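The stretch, its genes and the gene lists were chosen with earlier results of these data known. The submitters' processing notes list, among others, TopHat2 2.1.0 and HTSeq 0.6.1, and for peaks MACS2 and Bowtie2 2.3.1, with no role stated. Both hg19 and hg38 are named there. Of 344 stretch genes matched to RefSeq, 1 lay within 100 bp of its GRCh38 position, so file positions were taken as GRCh37-type, counted from 1.

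The authors deposited RNA values as CPM, scaled to the library total. All CPM values were whole multiples of 1 read within 0.01, so reads were recovered in all 6 libraries from the spacing of neighbouring values. The lowest value in parental 1 was 9 reads. The authors' log2 fold changes come from edgeR per the file headers. The authors' adjusted p-value was under 0.05 for 0 of the 386 stretch genes and 6 of all 14177. The deposited ATAC lists give −log10 q of broad peaks called by the authors in each library, and their fold and p columns were not usable. The score of the deposited GFP-UBR7 and intersected lists has no stated scale. CUT&RUN samples were not analysed here, and per-sample columns without a match numbered 0.

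Distances used 27353 gene starts of the deposited files. RNA was tested with limma 3.58.1 (trend, robust) on log2(CPM + 1) for genes above 1 CPM in 3 of 6 or 2 of 4 libraries, with Benjamini-Hochberg adjustment over all genes at 0.05. EdgeR 4.0.16 and DESeq2 1.42.0 on the recovered reads, other pseudocounts, filters and scalings, a limit at 60 Mb and left-out libraries were alternatives. Same-date libraries deviated together from their group means (correlation across genes 0.808 in the dated fit), and their pairing comes from the date codes. The fits were tested on simulated data. Named genes were UBR7, the 10 most expressed, the 8 highest and 8 lowest undated differences at 5 CPM or more, the genes with the largest called changes, and list members. The dated fit called 0, so the genes called with the block were named outside this rule, after their values were seen. 1 list member is counted but not reported here by name. Named regions were the best supported in each class, the widest and those at the limit.

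Software was Python 3.11.15 with numpy, pandas, scipy and matplotlib, and R 4.3.3.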

Additional observations from a re-analysis of the deposited data

Results flagged for a closer look

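These genes differed between the undated pair and the KO1 dated pairs by a limma test of the difference itself, in which 2 genes of the stretch were called higher and 39 lower. The undated pair has 1 library a side, and the spread in that test comes from the dated pairs alone. The values are differences of log2(CPM + 1) changes, KO2-1 pair minus KO1 pairs. Lower were EPAS1 (−2.08), SIX2 (−1.90), PXDN (−1.89), TRIB2 (−1.57), TMSB10 (−1.52), SLC8A1 (−1.44), C2orf43 (−1.25), RTN4 (−0.92), CAD (−0.84), SPTBN1 (−0.82), MTHFD2 (−0.76) and BIRC6 (−0.75). Higher were AC116614.1 (2.36) and ATP6V1C2 (1.32), a direction that the 1 CPM filter favoured. For SIX2, RTN4 and CAD the KO2-1 value lay inside the range of the 3 parental libraries. SPTBN1, MTHFD2 and BIRC6 were no longer called under TMM scaling or by edgeR. UBR7 RNA was at the parental level in KO2-1 and mitochondrial rRNA took 26.3% of its reads, and the part of either in these differences was not tested.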

How the results depend on the processing

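The UBR7KO to parental ratio of the stretch, 0.727, stayed below 1 under all 11 alternatives, from 0.625 with a stricter overlap to 0.821, and ran from 0.633 to 0.821 with 1 library left out. With −log10 q of at least 5 it was 0.752, but this rests on replicate 2. Replicate 1 then held only 2 of 281 regions in parental 1 and 3 of 295 in UBR7KO 1, which is not a lower share in UBR7KO. Split by distance, in alternatives chosen after seeing the data, it ran from 0.776 to 0.976 within 1 kb of a start and from 0.430 to 0.570 beyond 100 kb. The 0.776 came with the stricter overlap. Taken by replicate number the ratio was 0.798 and 0.652. The ATAC ratio has no test, so no fit with a block was made of it.

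The undated median of the stretch minus that of other genes, −0.38, was −0.40 with a pseudocount of 0.1, −0.37 with no filter and −0.34 against the mean of the 3 parental libraries, and TMM scaling left it at −0.38. Against that mean, 7 named genes turned below 0, EML6 (−0.23), LRRTM4 (−0.41), SLC1A4 (−0.87), FKBP1B (−0.24), IAH1 (−0.13), AC116614.1 (−0.36) and ATP6V1C2 (−0.26). The cause was not tested.

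In the KO1 dated pairs the count of called stretch genes, 0, became 8 with the date pair as replicate block and 2 with DESeq2, and was 0 to 0 with 1 library left out. The block left the 6-library count at 0, as did leaving out any 1 library (0 to 0). In the dated fit without the block, ID2 ranged from −1.05 without parental 2 to 0.059 without parental 1, each of which breaks a date pair. The test of the difference called 33 to 45 stretch genes under its 4 alternatives, against 41.

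The ATAC files give no read depth, so what depth limits there is unknown. The libraries of replicate 1 held the fewest peaks.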

Other observations

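In the authors' sets of regions found in both replicates, the stretch held 294 of 9933 parental regions (2.96%) and 352 of 14517 UBR7KO regions (2.42%). The authors' 4 clusters of gene starts placed 204 of 367 stretch starts (55.6%) in cluster 4, against 46.4% of starts elsewhere.

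The 2 GFP-UBR7 peaks of the stretch with the highest authors' score, 343 and 222, lay on no open region, at chr2:2299238-2299570 and chr2:1218245-1218514. The parental 2 regions called in no other library included one 695613 bp from the start of TSSC1 with a −log10 q of 13.4, above any other region of the stretch in that library (chosen after its value was seen).

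By biotype, the undated median was −0.40 for 339 protein-coding genes of the stretch, −0.35 for 8 lincRNAs, −0.10 for 11 antisense genes and 0.12 for 5 pseudogenes. Whether the counting used strand is not given in the sources used here, so antisense genes are uncertain.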
